A study of Mus musculus with 4 samples.

Results

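The TNF superfamily comprises trimeric signalling ligands, made mostly as membrane proteins, and the receptors that bind them. Some receptors carry a death domain and can recruit caspase-8. Others recruit TRAF adaptor proteins, which link the receptor to the IKK complex, NF-kB and MAP kinases, and a few are decoys that bind ligand without signalling. In peripheral nerve and dorsal root ganglia, where sensory neuron cell bodies lie among glia and resident immune cells, TNF is best known as an inflammatory mediator that sensitises nociceptors. The genes described here were the 48 of 48431 in the deposited table whose symbol matches a ligand, receptor or TRAF name of the family (Tnf, Lta, Ltb, Ltbr, Tnfsf and Tnfrsf with a number, Traf1 to Traf7, Cd40, Cd40lg, Fas, Fasl, Cd27 and Cd70). Each symbol had 1 row. They comprise 17 ligand genes, 24 receptor genes and 7 TRAF genes.

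The values are ribosome footprint reads, short mRNA pieces protected by ribosomes, from dorsal root ganglia (DRG) of wild-type female mice of the SW strain. Every library came from mice given paclitaxel, an anticancer taxane that stabilises microtubules and often leaves a painful neuropathy, in 4 intraperitoneal injections of 4 mg/kg on alternate days. There was 1 group of 4 libraries, replicates 1 to 4, at depths of 5731491, 9255057, 14633434 and 10424944 assigned reads, and age was not given in the sources used here. RNA libraries and untreated mice were not analysed here. The levels below are therefore no measure of a paclitaxel effect, and the comparisons are between genes of the same library. Whether each library is a different animal or pool is not stated in the labels, and the p-values below therefore reflect spread among libraries that may be technical.

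Levels are CPM, the reads of a gene per 1000000 assigned reads, as the mean ± SD over n = 4 libraries. Since a longer coding sequence collects more footprints, genes were compared with each other as CPM per kb of their longest annotated coding sequence. A count of 0 allows a level of up to 3 reads, and those 3 reads equal 0.523, 0.324, 0.205 and 0.288 CPM in replicates 1 to 4. These limits, and the intervals below, cover counting error only. In whole ganglia, fewer cells of a type and less RNA per cell cannot be told apart.

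The tissue label was checked against marker genes. All 7 pan-neuronal markers were detected, at a summed 7994 to 9576 CPM, and so were all 6 Schwann cell markers (13051 to 20063 CPM), all 5 satellite glia markers (6795 to 7900.1 CPM) and all 5 fibroblast markers (9207 to 15837 CPM). All 8 macrophage markers were detected too, at 370 to 515 CPM. All 6 neutrophil markers were detected at a higher sum, 879 to 956 CPM, and all 5 endothelial markers at 194 to 256 CPM. T-cell markers summed to 4.21 to 10.1 CPM with 1 of 6 detected (Cd4), and B-cell markers to 10.9 to 15.7 CPM with 3 of 5 detected. Among the marker lists, that of skeletal muscle differed most between libraries: it summed to 4129, 943, 2113 and 1273 CPM, and adipocyte markers to 290.5, 129, 300.0 and 161 CPM in replicates 1 to 4, with 4 of 5 detected. Replicate 3 also had 0 CPM for mt-Rnr2, a mitochondrial ribosomal RNA gene that had 23520.5 to 61455 CPM in the other libraries. With CPM recomputed after removal of mitochondrial genes and of the 20 most abundant genes, 24 members were again detected and 0 were called variable.

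Receptors took most of the reads, and Tnfrsf21 took more of them than any other member. Reads on receptor genes made up 80.6 ± 0.759% of all reads on the family, reads on TRAF genes 13.7 ± 0.614% and reads on ligand genes 5.65 ± 0.672%. Tnfrsf21 alone held 46.7 ± 3.81% of the family's CPM and 34.3 ± 3.09% of its CPM per kb. A gene was called detected when it reached 1 CPM in every library. That held for 24 of the 48 members, or 50%, beside 62.5% of the 21683 protein-coding genes in the table. All 7 TRAF genes were detected, as were 12 of 24 receptor genes and 5 of 17 ligand genes. The other 24 members included 21 with reads in at least 1 library and 3 ligand genes, Lta, Tnfsf4 and Tnfsf18, with no read in any.

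**Figure D1:**
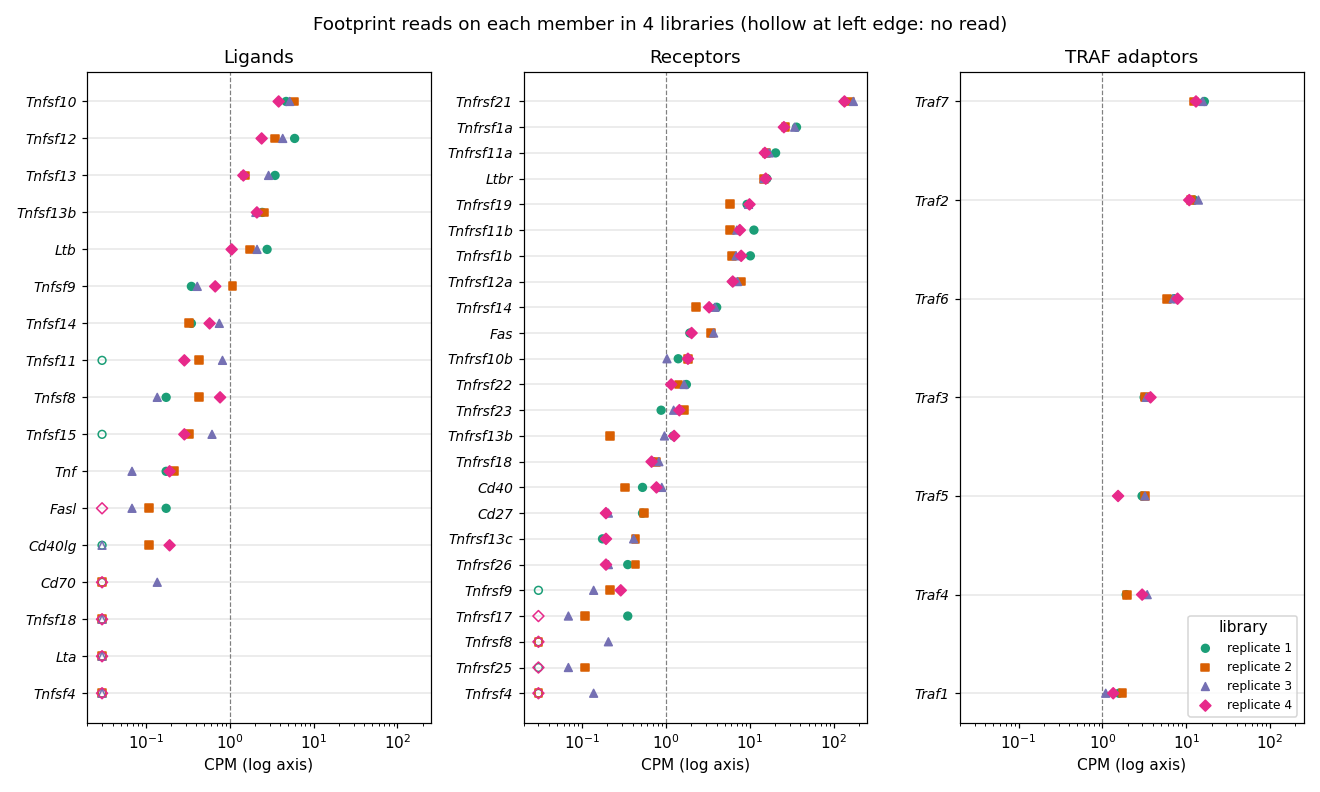
Footprint level of each of the 48 members in each of the 4 libraries, in CPM on a log axis, with ligands, receptors and TRAF adaptors in separate panels. Hollow symbols at the left edge stand for no read, and the dashed line marks 1 CPM; all 7 adaptors lie to its right in all libraries, and 12 of 17 ligands do not.

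Each gene's level per kb was also set against the median gene of the same library, which stood at 13.9 ± 0.779 CPM per kb over the 14128 genes with a coding sequence and 1 CPM or more on average. Among the 25 members that passed this filter, 3 lay above the median gene and 22 below it at an adjusted p under 0.05 (limma, intercept-only fit on all 14128 genes, Benjamini-Hochberg). Over all genes tested, 46.1% were called higher and 46.4% lower. The median of the 25 members was −1.57 on the log2 scale relative to the median gene, against 0.01 over all genes tested, and the other 23 members averaged less than 1 CPM. With unexpressed genes also counted in the reference median and all 48 members tested, 11 were called higher and 33 lower, where 47.2% and 47.1% of all genes were.

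Tnfrsf21 (ENSMUSG00000023915.4, GRCm38 chromosome 17, 43016555 to 43089189, plus strand) encodes death receptor 6, a death domain receptor studied in mice for its part in axon degeneration and myelination. It stood at 134, 155, 172 and 134 CPM in replicates 1 to 4. The lowest library was thus far above every library of any other member. Per kb it reached 75.7 ± 9.20 CPM, 2.40 on the log2 scale above the median gene (SE 0.07; limma adjusted p = 3.21e-09), higher in 4 of 4 libraries, at the 86.6th percentile of genes tested.

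Tnfrsf1a (ENSMUSG00000030341.17, chromosome 6, 125349362 to 125362484, plus strand) encodes TNFR1, the broadly expressed death domain receptor of TNF. Its values were 35.9, 26.6, 34.2 and 25.4 CPM. Replicates 1 and 3 were the higher ones, as they were for Schwann cell, muscle, adipocyte, macrophage and endothelial markers. They were not for neuronal, satellite glia, fibroblast, neutrophil, T-cell and B-cell markers. The part of any cell type in the values of Tnfrsf1a was not tested. Per kb Tnfrsf1a stood at 22.4 ± 3.89 CPM, 0.66 above the median gene (SE 0.08; limma adjusted p = 4.21e-05), in 4 of 4 libraries. The call was lost when genes averaging under 5 CPM were left out (0.17; limma adjusted p = 0.0672).

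Tnfrsf1b, the gene of TNFR2, which signals through TRAF2 and has no death domain, had 10.1, 6.05, 6.83 and 7.87 CPM, or 5.43 ± 1.24 CPM per kb. Tnfrsf1a exceeded Tnfrsf1b by a log2 ratio per kb of 1.96 ± 0.27, in 4 of 4 libraries. Tnfrsf21 in turn exceeded Tnfrsf1a by 1.74 ± 0.27, also in 4 of 4.

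Tnf itself was near the floor. It had 1, 2, 1 and 2 reads in replicates 1 to 4, which is 0.174, 0.216, 0.0683 and 0.192 CPM. No library exceeded its own limit of 3 reads. Pooled over the 40044926 reads of all libraries, its 6 reads correspond to 0.150 CPM with a 95% exact binomial interval of 0.0550 to 0.326 CPM. The receptor Tnfrsf1a had 1217 reads in the same libraries, a pooled ratio per kb of 105 (95% interval 48.1 to 287). Lta, which encodes the related ligand lymphotoxin alpha, had no read.

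Tnfrsf12a (chromosome 17, 23675445 to 23677468, minus strand), which encodes Fn14, a small receptor induced in injured tissue, had 6.28, 7.78, 7.11 and 6.24 CPM. Its coding sequence of 417 nt is the shortest of the family, so that its level per kb was 16.4 ± 1.77 CPM, the third highest among members. That was 0.23 above the median gene (SE 0.08; limma adjusted p = 0.0264) in 4 of 4 libraries. Without the length correction it was lower than the median gene by −1.46 (limma adjusted p = 3.63e-08), and with a filter at 5 CPM by −0.26 (limma adjusted p = 0.0144). The call was also lost without replicate 2 or replicate 3 (limma adjusted p = 0.112 and 0.0704) and when levels were centred on the library mean (0.16; limma adjusted p = 0.0986).

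The ligand of Fn14 is TWEAK, encoded by Tnfsf12 (chromosome 11, 69686250 to 69695849, minus strand), directly beside Tnfsf13, the gene of the B-cell factor APRIL (69682846 to 69685784). Reads on these genes cannot be placed with certainty. Another annotated gene, Tnfsfm13, joins the front of Tnfsf12 to the rear of Tnfsf13, so that 84.1% of the 30-nt words in the Tnfsf12 coding sequence and 81.8% of those in Tnfsf13 occur in Tnfsfm13 as well. The coding sequences around the join (GENCODE M21, GRCm38, 5′ to 3′ along the mRNA) show this. The capitals mark the piece that Tnfsfm13 has in common with Tnfsf13, and the lower-case front of Tnfsfm13 is identical to Tnfsf12.
Tnfsf12: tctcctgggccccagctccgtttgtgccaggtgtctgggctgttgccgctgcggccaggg
Tnfsfm13: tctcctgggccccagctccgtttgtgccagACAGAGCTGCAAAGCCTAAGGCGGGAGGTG
Tnfsf13: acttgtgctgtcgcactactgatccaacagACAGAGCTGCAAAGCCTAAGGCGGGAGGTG

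The deposited values carry the trace of such a division. Dividing by the value of 1 read gave 34.1, 31.9, 62.8 and 25.1 reads for Tnfsf12, 19.9, 14.2, 42.5 and 15.2 for Tnfsf13 and 29.0, 53.9, 119.7 and 50.8 for Tnfsfm13. Their sums were whole numbers in 4 of 4 libraries, at 83, 100, 225 and 91 reads. As CPM the sum of the 3 genes was 14.5, 10.8, 15.4 and 8.73, with the higher values again in replicates 1 and 3. Listed alone, Tnfsf12 averaged 4.02 ± 1.498 CPM and Tnfsf13 2.34 ± 1.01 CPM. Tnfrsf12a exceeded Tnfsf12 by a log2 ratio per kb of 1.58 ± 0.53 in 4 of 4 libraries, and Tnfsf12 exceeded Tnfsf13 by 0.66 ± 0.22, but both ratios depend on how reads were divided.

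Among the other ligands, Tnfsf10 had the highest level. It encodes TRAIL, which triggers cell death through its receptor, and had 4.71, 5.83, 5.19 and 3.84 CPM. Its mouse death receptor gene Tnfrsf10b had 1.40, 1.84, 1.03 and 1.82 CPM. Here the ligand exceeded the receptor, with a log2 ratio per kb of receptor over ligand of −1.74 ± 0.40 in 4 of 4 libraries. Of the Tnfrsf10b coding sequence 81.2% was unique, since a processed pseudogene, Gm15574, shares 18.8% of its 30-nt words; that pseudogene was listed at 0 in all libraries.

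Tnfrsf22 and Tnfrsf23, neighbouring mouse genes on chromosome 7 for TRAIL decoy receptors, share 17.5% and 19.8% of their 30-nt words with each other. An aligned stretch of 81 coding bases from each, with the single base that differs in capitals, shows windows of footprint length, 28 to 34 nt, that are identical in both genes.
Tnfrsf22: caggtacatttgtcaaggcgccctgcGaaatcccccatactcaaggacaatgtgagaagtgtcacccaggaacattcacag
Tnfrsf23: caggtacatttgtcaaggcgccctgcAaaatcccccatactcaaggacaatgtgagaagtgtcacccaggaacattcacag

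Tnfrsf22 had 1.74, 1.40, 1.64 and 1.15 CPM, and Tnfrsf23 had 0.872, 1.62, 1.23 and 1.44 CPM. Tnfrsf23 was therefore the 1 member that averaged above 1 CPM without reaching it in every library, and without replicate 1 it would count as detected.

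Ltbr (chromosome 6, 125306571 to 125313885, minus strand), the receptor of lymphotoxin beta and LIGHT, was the steadiest of the detected members by coefficient of variation, at 3.96%. Its reads numbered 91, 135, 216 and 161 in replicates 1 to 4, and the steadiness was not tested against counting error. Its values were 15.9, 14.6, 14.8 and 15.4 CPM, or 12.2 ± 0.483 CPM per kb, close to the median gene (−0.18, SE 0.07; limma adjusted p = 0.0419). Dropping any 1 of the 4 libraries ended that call (limma adjusted p between 0.0558 and 0.139). The ligand gene Ltb had 2.79, 1.73, 2.12 and 1.06 CPM, and Tnfsf14, which encodes LIGHT, had 0.349, 0.324, 0.752 and 0.576 CPM. Ltbr exceeded them by log2 ratios per kb of 2.34 ± 0.46 and 3.43 ± 0.35, in 4 of 4 libraries each, and the pooled ratio to Tnfsf14 was 15.8 (95% interval 10.3 to 25.4). Tnfrsf14, the gene of HVEM, another LIGHT receptor, had 4.01, 2.27, 3.83 and 3.26 CPM.

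In the RANK system, known best from osteoclasts, both receptor genes had reads and the ligand gene had few. Tnfrsf11a (chromosome 1, 105780718 to 105847981, plus strand), which encodes the signalling receptor RANK, had 20.2, 15.8, 16.9 and 15.1 CPM. It was the third highest member by CPM and the fifth highest per kb, at 9.07 ± 1.22. Tnfrsf11b, which encodes the secreted decoy osteoprotegerin, had 11.2, 5.73, 6.97 and 7.58 CPM. The decoy was lower than the signalling receptor by a log2 ratio per kb of −0.47 ± 0.25, in 4 of 4 libraries. Tnfsf11, the ligand gene, had no read in replicate 1 and 0.432, 0.820 and 0.288 CPM in replicates 2 to 4. Tnfrsf11b had 298 reads in all and Tnfsf11 19, a pooled ratio per kb of 12.4 (95% interval 7.78 to 20.8). The decoy was higher in 4 of 4 libraries, but the mean log2 ratio per kb depended on the pseudocount, at 4.07 with 0.1, 3.01 with 0.5 and 2.42 with 1.

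Tnfrsf19, the gene of the orphan receptor TROY, known as a partner of the Nogo receptor in neurons, had 9.25, 5.73, 9.64 and 9.88 CPM. Replicate 2 stood below the other 3 libraries. The gene was lower than Tnfrsf21 by a log2 ratio per kb of −3.38 ± 0.42 in 4 of 4 libraries. Fas, the receptor that starts apoptosis through FADD, had 1.92, 3.46, 3.69 and 2.01 CPM, while its ligand gene Fasl had 3 reads in all. Fas had 118 reads, a pooled ratio per kb of 33.6 with a 95% interval of 11.2 to 165.

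Genes known from lymphocyte costimulation had few reads, and some exceeded 3 reads in no library. Cd40 averaged 0.626 ± 0.252 CPM and Cd27 0.365 ± 0.193 CPM, and their ligand genes Cd40lg and Cd70 had 3 and 2 reads in all 4 libraries together. The pooled ratio per kb of Cd40 over Cd40lg was 8.10 (95% interval 2.49 to 41.7) and that of Cd27 over Cd70 was 5.07 (1.15 to 46.3). Tnfrsf8, Tnfrsf25 and Tnfrsf4, which encode CD30, DR3 and OX40, had 3, 2 and 2 reads. Tnfrsf9, the gene of 4-1BB, had 7, and Tnfrsf26, a neighbour of the TRAIL decoy receptor genes, had 11. Tnfrsf18, which encodes GITR, had 0.698, 0.756, 0.820 and 0.671 CPM, from 4, 7, 12 and 7 reads. Of its 30-nt words 19.5% also lie in an antisense gene, and the strand setting of the counting was not given in the sources used here. Of the ligands, Tnfsf9 averaged 0.628 ± 0.333, Tnfsf8 0.378 ± 0.291 and Tnfsf15 0.307 ± 0.252 CPM. Altogether 12 members exceeded 3 reads in no library: Tnf, Fasl, Cd40lg, Cd70, Lta, Tnfsf4, Tnfsf18, Tnfrsf9, Tnfrsf17, Tnfrsf8, Tnfrsf25 and Tnfrsf4. T-cell markers were low in the same libraries, with Cd3e, Cd3d, Cd3g, Cd8a and Trac all undetected.

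Among the genes of B-cell survival, the ligand gene Tnfsf13b lay above its receptor genes. Tnfsf13b, which encodes BAFF, was detected at 2.44, 2.59, 2.05 and 2.11 CPM, from 14, 24, 30 and 22 reads. Of its receptor genes, Tnfrsf13b (TACI) had 1.22, 0.216, 0.957 and 1.25 CPM, Tnfrsf13c (BAFF receptor) 0.174, 0.432, 0.410 and 0.192 CPM, and Tnfrsf17 (BCMA) 4 reads in all. As listed, Tnfsf13, the APRIL gene, also had more CPM per kb than Tnfrsf13b and Tnfrsf17 in 4 of 4 libraries. Its reads could not be placed with certainty. The log2 ratio per kb of Tnfrsf13c over Tnfsf13b was −1.59 ± 0.35, with the receptor lower in 4 of 4 libraries, and the pooled ratio per kb, which uses no pseudocount, was 0.223 (95% interval 0.114 to 0.401). The B-cell markers Cd79a, Cd79b and Ms4a1 were detected, at means of 4.48, 4.56 and 2.30 CPM, and Pax5 was not.

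All 7 TRAF genes were detected, and all 7 were called lower than the median gene per kb, where 46.4% of all genes tested were. With no filter on low values, Traf2 (0.93) and Traf7 (0.78) were instead called higher (limma adjusted p = 2.19e-06 and 1.33e-05), Traf6 was not called (0.13; limma adjusted p = 0.302), and the other 4 were called lower. Traf2, the adaptor that binds TNFR2 directly and TNFR1 through TRADD, had 12.4, 11.5, 13.9 and 10.8 CPM, or 7.98 ± 0.886 CPM per kb. That was −0.77 from the median gene (SE 0.08; limma adjusted p = 1.01e-05). Traf7, whose product carries WD40 repeats in place of the TRAF domain, had 16.4, 12.4, 15.7 and 13.0 CPM, or 7.17 ± 0.976 per kb. Its reads were fractional in 2 libraries and became whole in 4 of 4 once those of the overlapping gene Rab26, at 0.222 to 0.560 CPM, were added. Traf6, which serves Toll-like receptors and RANK, had 7.15, 5.83, 6.97 and 7.87 CPM.

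The remaining TRAF genes were lower. Traf3, which restrains noncanonical NF-kB, had 3.14, 3.24, 3.35 and 3.74 CPM, Traf5 had 2.97, 3.24, 3.21 and 1.53 CPM, and Traf4 had 1.92, 1.94, 3.42 and 2.97 CPM. Traf1, which NF-kB itself induces, was the lowest at 1.57, 1.73, 1.09 and 1.34 CPM. Relative to Traf2, the log2 ratios per kb were −0.80 ± 0.23 for Traf6, −1.77 ± 0.21 for Traf3 and −1.89 ± 0.31 for Traf4. Traf2 exceeded Traf1 by 2.35 ± 0.31, and Traf7 exceeded Traf6 by 0.65 ± 0.20. Each of these held in 4 of 4 libraries.

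**Figure D2:**
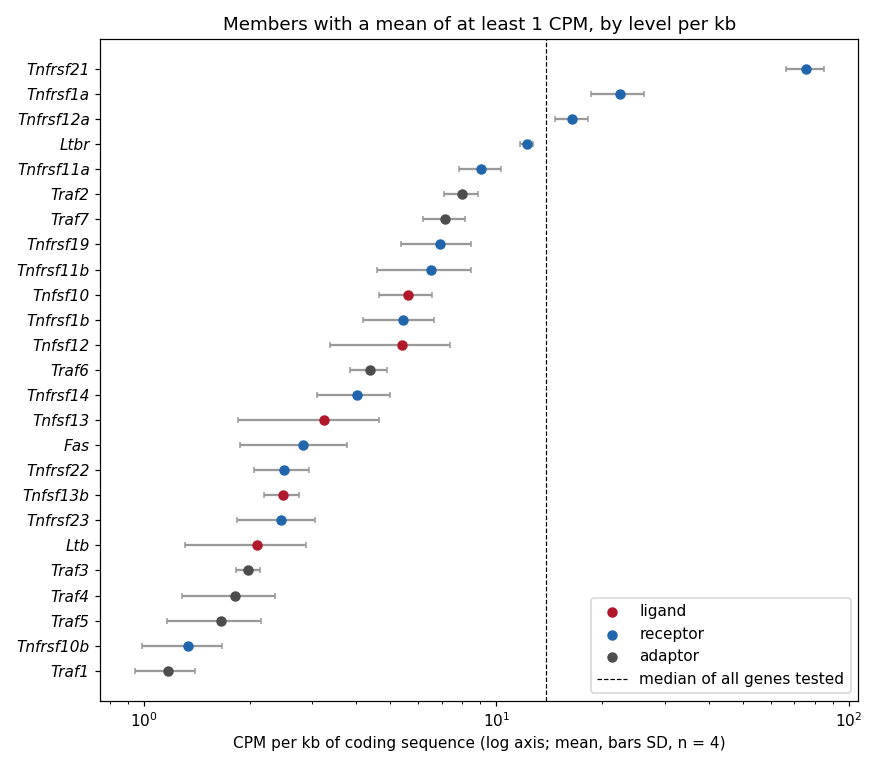
Level per kb of coding sequence of the 25 members with a mean of at least 1 CPM, as mean and SD of 4 libraries on a log axis, coloured by role. The dashed line is the median of all genes tested, at 13.9 CPM per kb; Tnfrsf21, Tnfrsf1a and Tnfrsf12a have means to its right.

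Ranked per kb, the 4 highest members were separated from their next neighbour in every library. The order was Tnfrsf21, Tnfrsf1a, Tnfrsf12a, Ltbr and Tnfrsf11a, and the ranges of these neighbours did not overlap. Tnfrsf1a and Tnfrsf12a were barely apart, since the lowest Tnfrsf1a library had 18.664 and the highest Tnfrsf12a library 18.656 CPM per kb. The ranges of the other 20 neighbouring pairs, from Tnfrsf11a (9.07 ± 1.22 CPM per kb) down to Traf1 (1.17 ± 0.226 CPM per kb), overlapped. Among these 20, Tnfrsf14 was above Tnfsf13 in 4 of 4 libraries, and members farther apart in the order, such as Tnfrsf11a and Traf6, had ranges that did not overlap.

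Of the 20 pairs compared, 13 had the first gene higher and 7 the second in 4 of 4 libraries. The 2-sided exact sign-flip permutation test gave p = 0.13 for each pair, before and after adjustment over the 20, and with 4 libraries it cannot give a smaller value. Of the 10 pairs of a receptor or decoy with its ligand, 8 had the receptor gene higher, and the exceptions were Tnfrsf10b below Tnfsf10 and Tnfrsf13c below Tnfsf13b. These pairs were a chosen set that leaves out other ligands and receptors of the family, so the tally is no share over the family. Outside the set, the ligand genes Tnfsf9 and Tnfsf8 had higher mean levels per kb than their receptor genes Tnfrsf9 and Tnfrsf8. Tnfsf18, with no read, was below its receptor gene Tnfrsf18.

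**Figure D3:**
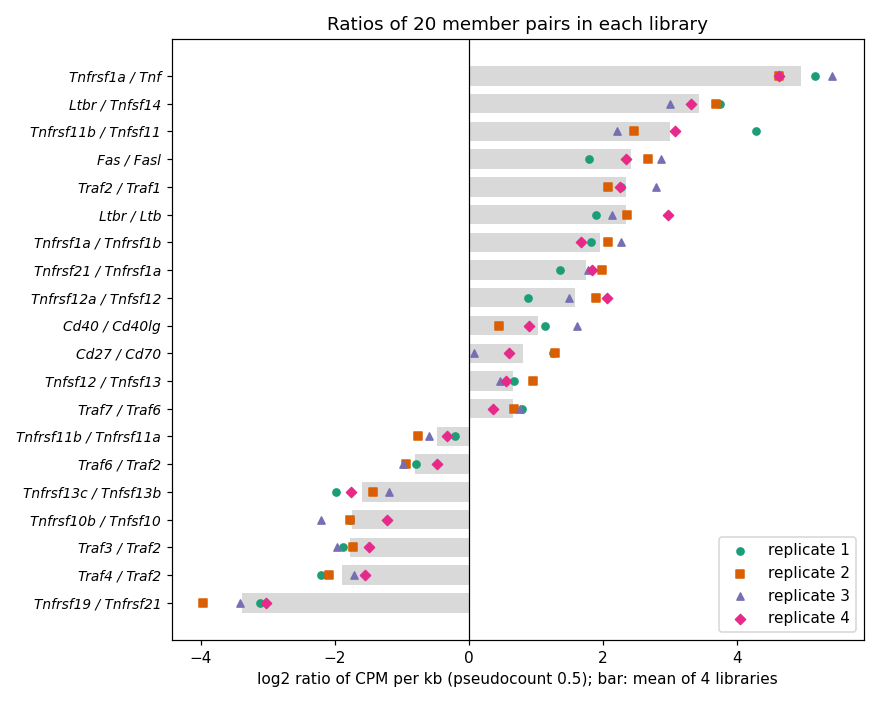
Log2 ratio of CPM per kb for 20 pairs of members, with a pseudocount of 0.5, in each of 4 libraries (symbols) and as their mean (bars from 0). All 4 symbols of each pair lie on the same side of 0, from Tnfrsf1a over Tnf at the top to Tnfrsf19 over Tnfrsf21 at the bottom.

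No member was called more variable between libraries than genes of its level. Of the 25 members tested, 0 were called variable (F test on limma's trended prior variance, adjusted over 15728 genes) and 0 had an unadjusted p under 0.05, where 1.54% of all genes were called. Of the 14128 genes that also have a coding length, as all members do, 101 were called variable and 637 had an unadjusted p under 0.05. At such shares, 0 of 25 sets the family apart in no way. In simulated data the test called 71% of genes changed 2-fold in 1 library, all of them genes of at least 5 CPM, and many members lie below that. All 5 skeletal muscle markers and 1 of 5 adipocyte markers were called in the same fit. The most uneven detected members by coefficient of variation were Tnfsf13 at 43.0%, Ltb at 37.8% and Tnfsf12 at 37.2%.

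Most downstream genes of the pathway were detected, where 62.5% of protein-coding genes in the table were. For each list below, the shares over all genes tested were 46.1% called higher and 46.4% called lower. The lists are short, and no list was tested as a set. All 11 genes of the receptor complex (adaptors, ubiquitin ligases and TAK1 kinase subunits) were detected, and 1 was called higher and 9 lower than the median gene per kb. Sharpin, a subunit of the linear ubiquitin ligase, led by CPM at 42.9 ± 4.08, followed by Tab3 at 29.0 ± 4.68 and the kinase gene Map3k7 at 19.2 ± 2.46. Their level per kb differed from the median gene by 1.40 for Sharpin, which was called higher, and −0.38 for Map3k7, which was called lower. Tab3, at −0.05, was not called.

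The IKK and NF-kB genes were all detected as well, 11 of 11. Of these, 4 were called higher and 6 lower, where 46.1% and 46.4% of all genes tested were. Tbk1, at 65.2 ± 4.92 CPM, Rela, which encodes the p65 subunit, at 54.5 ± 6.97 CPM, and Nfkb1, which encodes p105 and p50, at 50.6 ± 10.7 CPM, had the most reads. The noncanonical genes Relb (−1.72), Nfkb2 (−0.73) and Map3k14, the kinase NIK (−2.53), were each called lower on the log2 scale per kb. The others called lower were Rel (−1.98), Chuk (−1.15) and Ikbkb (−0.76), so low calls were not limited to the noncanonical genes. Among 7 feedback inhibitors, all detected, 2 were called higher and 4 lower. Nfkbia, the gene of IkB alpha, had 41.8 ± 5.35 CPM, Nfkbib 32.03 ± 4.07 CPM and Tnip1 28.6 ± 1.90 CPM, whereas Tnfaip3, the gene of A20, had 5.89 ± 1.68 CPM.

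All 7 cell death genes were detected, with 1 called higher and 5 lower. Bid was highest at 18.9 ± 1.97 CPM, followed by the caspase-8 inhibitor gene Cflar at 12.6 ± 0.756 CPM. Casp8 itself stood at 7.02 ± 0.866 CPM, and the necroptosis genes Ripk3 and Mlkl at 2.37 ± 0.486 and 3.39 ± 0.439 CPM. Of 8 genes that TNF can induce, 7 were detected and 1, the chemokine gene Cxcl1, was not; 2 were called higher and 3 lower. Sod2, the mitochondrial superoxide dismutase, had 139 ± 9.44 CPM, the adhesion gene Vcam1 54.1 ± 6.01 CPM and Icam1 16.0 ± 2.05 CPM.

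Of 4 genes that process ligands and receptors, all were detected, with 2 called higher and 2 lower. They were led by Adam10 at 173 ± 19.2 CPM, followed by Adam17, the TNF-converting enzyme, at 44.0 ± 5.11 CPM and Rhbdf1, a partner of it, at 17.8 ± 3.40 CPM. Relatives that carry other names were mixed, with 3 of 6 detected, 1 called higher and 2 lower. Ngfr, the p75 neurotrophin receptor of neurons and glia, which is a death domain receptor of the same superfamily, had 371, 360.2, 334 and 387 CPM, above Tnfrsf21 in every library. Relt and the ectodysplasin gene Eda were detected at 7.09 ± 2.16 and 6.29 ± 1.28 CPM, and Edar, Eda2r and Edaradd were not.

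**Figure D4:**
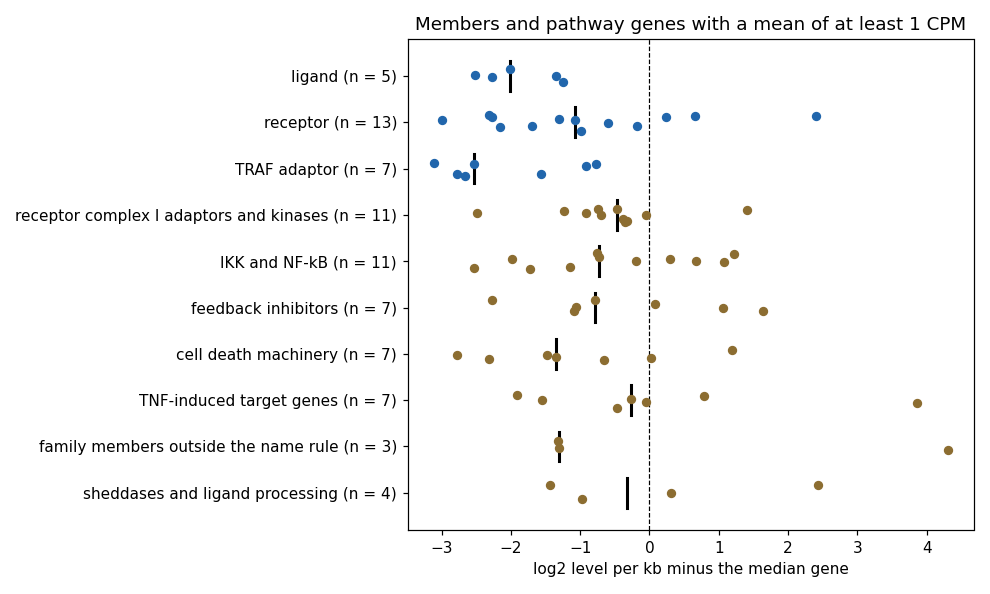
Log2 level per kb minus the median gene of the same library, as the mean of 4 libraries, for members by role (blue) and pathway lists (brown), limited to those averaging 1 CPM or more. Black bars are list medians and the dashed line is the median gene; the 7 TRAF genes and the 5 ligand genes lie to its left, and the point farthest right is Ngfr.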

How the data were processed

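The table that the authors deposited is named as holding TPM. Each of its 4 columns summed to 1000000. In each column a single step fitted 96.5% to 96.7% of the nonzero values as whole multiples (tolerance 0.05), whatever the gene's length. The deposited values were therefore read as CPM, that is 1 read per step, with no correction for gene length. Cufflinks 2.2.1, Bowtie2 2.2.9, TopHat2 2.1.1 and FastQC 0.11.5 appear, with the builds mm10 and GRCm38.p4 and without roles, per the submitters' processing notes. The counting rule is not given in the sources used here. Per the labels' protocols, footprints of 28 to 34 nt were isolated after ribosomal RNA depletion.

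The members and gene lists were chosen with earlier results of these data known. Identifiers were matched to GENCODE M21 (GRCm38) for 48052 of 48431 genes, and 22243 had a coding length. The unique share of a coding sequence is the percent of its 30-nt words that transcripts of other genes lack, on either strand. Levels were log2(CPM per kb + 0.5) minus the library's median and were tested with limma 3.58.1 (R 4.3.3), and variances used log2(CPM + 1). Such log2 differences understate those of low genes. Pair ratios used an exact sign-flip test (SciPy 1.17.1), and pooled read ratios exact binomial (Clopper-Pearson) intervals. The design planned these tests for the deposited unit, and no count test was run. All members are named, with the 3 highest and the undetected genes of each pathway list; other pathway genes named were chosen after their values were seen, and some genes of the lists are not reported here. Both limma tests were tested on simulated data. Alternatives were other pseudocounts, filters, scalings and centrings, no length correction, and each library left out.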

Additional observations from a re-analysis of the deposited data

Results flagged for a closer look

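In 12 of 141 sets of 4 library values, 1 library stood apart from the other 3, with a gap to its nearest neighbour over the whole range above Dixon's 95% critical value for 4 samples. For independent, normally distributed values, chance gives this in about 1 set in 20. Some sets here hold only 2 or 3 reads and others share genes, so 12 of 141 cannot be set against that rate. The ratio was 0.848 for Tnfrsf19, low in replicate 2, and 0.839 for Traf5, low in replicate 4. It was 1 for Tnfrsf8, Cd70 and Tnfrsf4, whose 3, 2 and 2 reads all came from replicate 3, the deepest library. Among pathway genes it was 0.960 for Cyld and 0.931 for Casp8 and 0.892 for Tnfaip6, each low in replicate 2, and 0.912 for Relt, high in replicate 3. Among summed levels it held for the cell death genes (0.840, low in replicate 2), the TNF-induced genes (0.902, low in replicate 2) and the neutrophil markers (0.887, high in replicate 1). Replicate 2 was also the lowest library for muscle, adipocyte, macrophage, fibroblast, satellite glia, T-cell and B-cell markers, and their part in these values was not tested.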

How the results depend on the processing

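The 20 pair ratios kept their direction under every alternative run (pseudocounts of 0.1 and 1, no length correction, each library left out), and 13 pairs had the first gene higher throughout. Detected members numbered 24 to 26 in all, and 24 to 25 with a library left out. Members called variable stayed at 0 throughout, while calls over all genes numbered 757 without the filter, 148 without replicate 2 and 106 without replicate 3, against 242. The counts against the median gene depend on which genes form the median. With no filter on low values 11 members were called higher and 33 lower, and with a filter at 5 CPM 1 was higher and 9 lower of the 11 tested, among which Tnfrsf1a lost its call and Tnfrsf12a turned. Over all genes tested, 47.2% were called higher and 47.1% lower without the filter, and 45.8% and 45.7% with the filter at 5 CPM. With a library left out, 2 to 3 members were higher and 21 to 22 lower. Over all genes the shares were then 45.2% to 45.7% higher and 45.5% to 46.1% lower. Without the filter the sign turned for Tnfrsf11a (1.10), Ltbr (1.51), Traf7 (0.78), Traf2 (0.93), Tnfrsf19 (0.71), Tnfrsf11b (0.63), Tnfrsf1b (0.39), Traf6 (0.13), Tnfsf10 (0.45), Tnfsf12 (0.34) and Tnfrsf14 (0.0055). Tnfrsf12a turned to −0.26 with the filter at 5 CPM and to −1.46 without the length correction. The median over all members of a role, relative to the median gene on the log2 scale, was −4.05 ± 0.20 for ligands, −2.65 ± 0.15 for receptors, −2.47 ± 0.14 for TRAF genes and −3.04 ± 0.14 for all 48. With a library left out they ranged from −4.11 to −3.96, −2.71 to −2.61, −2.50 to −2.41 and −3.10 to −3.00. As means of log2 values these were −3.62, −2.38, −2.05 and −2.77. With a pseudocount of 0.1 they were −4.91, −2.89, −2.67 and −3.38, and without the length correction they were −4.66, −3.47 and −3.52 for ligands, receptors and all 48. No paired analysis was possible because there was 1 group. Depth limits the 12 members that exceeded 3 reads in no library.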
